A study of Mus musculus with 9 samples.

Results

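The genes described here are 10 markers of blood cells measured in pieces of embryonic mouse kidney: 6 genes of red blood cells and their precursors (Hbb-y, Hba-x, Alas2, Slc4a1, Epor and Tfrc) and 4 genes of macrophages (Csf1r, Ctss, Laptm5 and Adgre1). They were chosen by name, with earlier results of these data known. Every probe set that the array's annotation pairs with exactly 1 of these symbols was included, whatever its values. That gave 23 of the 22690 probe sets, for 10 of the 12393 genes with such a probe set. Of the 23, 15 belong to the erythroid genes and 8 to the macrophage genes. Several probe sets of 1 gene read the same transcript or parts of it, so they are repeated readings and not independent samples.

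Affymetrix MOE430A arrays measured the transcripts of 3 structures that were dissected by their shape from E14.5 kidneys (embryonic day), with 3 arrays for each structure. The s-shaped body is a folded epithelial stage of the forming nephron, into whose cleft capillaries grow. The renal vesicle is the earlier, spherical stage. The collecting duct system is the branching epithelium that the ureteric bud gives rise to, and it drains the nephrons. All 3 groups were wild-type, strain 129, E14.5 and Theiler stage 22, with the sex of the embryos unknown. Each s-shaped body sample and each renal vesicle sample pooled 20 structures, whereas collecting duct samples were not pooled (pool size 1), so pool size and structure cannot be told apart in comparisons with the collecting duct. RNA of every sample went through 2 rounds of amplification. The labels call each minimally pooled sample a biological replicate, and do not say whether samples of a structure came from separate litters.

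The values are intensities on a linear scale, 1 per probe set and array, and the array medians lay between 112.2 and 144.8. Markers of the labelled structures were checked first: all 4 measured podocyte markers were higher in the s-shaped body than in renal vesicle and the collecting duct, 5 of 6 nephron epithelium markers were higher in the renal vesicle relative to the collecting duct, and 5 of the 6 were lower and 1 higher in the s-shaped body than in renal vesicle. On every s-shaped body array 4 of these 6 lay at or below the array median. Of 9 collecting duct markers, 5 were lower in the s-shaped body than in collecting duct. The podocyte list summed to 41090 to 41350 in s-shaped body arrays and 469.7 to 555.6 in the collecting duct. In renal vesicle replicates 1, 2 and 3 it summed to 510.2, 538.9 and 5081. Sums of lists, here and below, are of normalized intensities unless deposited ones are named. Collecting duct replicate 2 stood apart on Hbb-y, and renal vesicle replicate 3 on the podocyte gene Ptpro, whose intensity of 1578 there stood against 85.3 and 120 in renal vesicle replicates 1 and 2. Member differences whose call turned on either array are given with and without it. Counts and sums of lists use all arrays. The ratio of the 3' to the 5' control probe set of Gapdh, which is higher for RNA that is shorter at its 5' end, was 20.03 to 32.43 in the s-shaped body, against 11.95 to 14.54 in the renal vesicle and 11.62 to 18.56 in the collecting duct. The same ratio overlapped between the structures for Actb, with 30.06 to 50.89 in the s-shaped body, 32.24 to 41.23 in the renal vesicle and 34.12 to 42.49 in the collecting duct. It overlapped for Tfrc too, but both Tfrc control probe sets lay below the array median on every array, so that ratio says little. The part of RNA quality in the results was not tested.

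Red blood cells carry oxygen on hemoglobin, a complex of alpha-like and beta-like globin chains with heme. In the mouse embryo, the first wave of red cells arises in the yolk sac, circulates with nuclei and uses embryonic globins such as Hbb-y (beta-like) and Hba-x (alpha-like), while the later wave comes from the fetal liver. Macrophages of yolk sac and fetal liver origin settle in the kidney as it forms, depend on the receptor Csf1r, and take up dying cells and debris.

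Promoter sequences of the erythroid members are shown because several of these genes are known targets of GATA1, the transcription factor of red cell precursors, whose core motif is read as GATA with A or T before it and A or G after it, on either strand. RefSeq entries (build GRCm38.p6) were matched for 7 of the 10 members, and the 250 bases before the start site were searched. The letters were present in 4 of the 7, which are printed 5′ to 3′ on the strand of the gene with the matches in capitals. A match on the opposite strand shows as TATC.
Hbb-y, chr7:103853208-103853457, minus strand: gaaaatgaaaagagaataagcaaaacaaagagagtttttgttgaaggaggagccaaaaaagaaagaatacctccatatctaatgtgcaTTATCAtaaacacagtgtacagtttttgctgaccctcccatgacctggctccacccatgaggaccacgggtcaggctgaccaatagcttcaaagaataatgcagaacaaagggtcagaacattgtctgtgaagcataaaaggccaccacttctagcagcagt
Hba-x, chr11:32276350-32276599, plus strand: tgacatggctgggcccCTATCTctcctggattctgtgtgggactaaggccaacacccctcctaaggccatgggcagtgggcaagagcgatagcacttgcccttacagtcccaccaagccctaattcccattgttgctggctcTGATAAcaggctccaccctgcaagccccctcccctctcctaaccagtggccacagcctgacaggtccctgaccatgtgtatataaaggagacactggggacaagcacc
Alas2, chrX:150547167-150547416, plus strand: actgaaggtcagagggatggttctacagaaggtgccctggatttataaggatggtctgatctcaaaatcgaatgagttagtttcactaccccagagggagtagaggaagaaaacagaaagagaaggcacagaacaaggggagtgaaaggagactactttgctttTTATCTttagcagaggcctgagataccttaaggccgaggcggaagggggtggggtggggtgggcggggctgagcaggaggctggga
Epor, chr9:21963577-21963826, minus strand: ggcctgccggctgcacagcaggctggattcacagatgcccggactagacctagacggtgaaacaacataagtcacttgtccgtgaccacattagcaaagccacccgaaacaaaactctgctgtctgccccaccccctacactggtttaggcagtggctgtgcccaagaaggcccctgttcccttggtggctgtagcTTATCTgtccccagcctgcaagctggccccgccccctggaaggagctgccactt
The first base of the match lay 162 bases upstream of the start in Hbb-y, 234 and 108 in Hba-x, 86 in Alas2 and 54 in Epor. Of 32851 mouse promoters of the same length, 8718 (26.5%) hold at least 1 such match, so the letters alone are common. Neither the 2 listed starts of Tfrc nor the promoters of Ctss and Laptm5 hold them within this window. A match describes the letters only, and binding was not measured here.

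By their brightest probe sets, Hba-x, Alas2, Slc4a1, Csf1r and Ctss were higher in the s-shaped body than in each of the other structures, Hbb-y was higher there than in collecting duct on all 3 of its probe sets and than in renal vesicle on 1 of them, Tfrc was lower there, and Laptm5 was lower in the renal vesicle than in each of the others. Of the 23 probe sets, 11 were higher in the s-shaped body and 1 was lower than in collecting duct at an adjusted p under 0.05, where 8.8% of all probe sets were higher and 7.82% lower. Without regard to a test, 13 of the 23 did not overlap between these 2 structures, against 31.7% of all probe sets. Against the renal vesicle, 11 were again higher in the s-shaped body and 1 lower, where 9.45% of all probe sets were higher and 9.15% lower, and 16 of the 23 did not overlap, against 37.3% of all probe sets. Between the renal vesicle and the collecting duct, 0 members were higher and 2, both of Laptm5, were lower in the renal vesicle, against 7.83% and 7.49% of all probe sets. There 6 of the 23 did not overlap, against 31.2% of all probe sets. With collecting duct replicate 2 left out, 2 members (the x_at probe sets of Hbb-y) were higher and 1 lower in the renal vesicle. Of all 22629 probe sets, 1164 were then higher and 1194 lower. The median log2 difference of the members was 0.58 for s-shaped body minus collecting duct and 0.82 for s-shaped body minus renal vesicle, while over all probe sets it was -0.04 in both. For renal vesicle minus collecting duct the members' median was -0.0071. All these counts and medians describe members that were chosen with earlier results of these data known.

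With the brightest probe set of each gene, 7 of the 10 genes were higher and 1 (Tfrc) lower in the s-shaped body than in collecting duct, where 10.9% of all genes were higher and 9.72% lower. Against the renal vesicle the counts were 7 and 1 too, where the shares of all genes were 11.8% and 10.5%. The genes were not all the same: Hbb-y, by its brightest probe set, was called against the collecting duct and Adgre1 against the renal vesicle. In bulk samples, a lower level can come from fewer cells of a type or from less RNA per cell, which cannot be told apart here. The plot of differences shows each member's estimate.

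**Figure D1:**
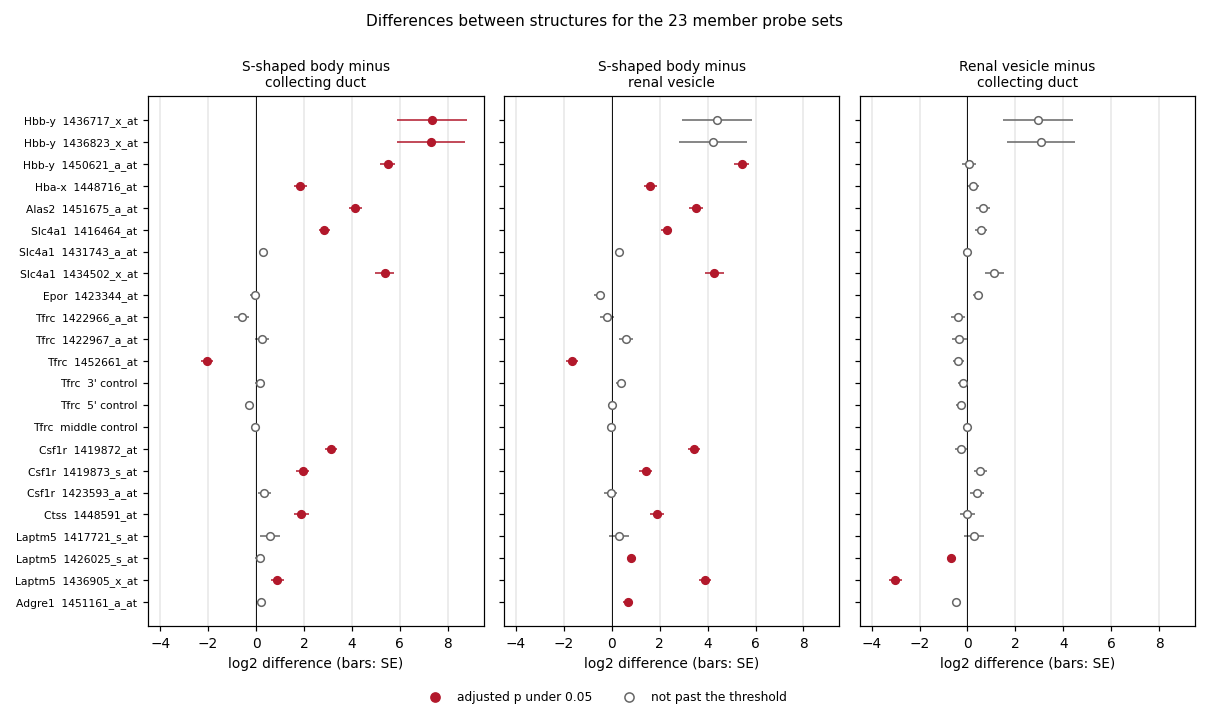
Log2 differences (horizontal axis, on the scale of log2 intensity plus 26) of the 23 member probe sets for s-shaped body minus collecting duct, s-shaped body minus renal vesicle and renal vesicle minus collecting duct. Points are limma estimates, bars their standard errors, and filled points have an adjusted p under 0.05: 12, 12 and 2 members. The largest differences belong to Hbb-y, with the widest bars on its 2 x_at probe sets.

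Hbb-y encodes the embryonic epsilon-y beta-like globin. Its brightest probe set, 1436823_x_at, had intensities of 19475, 17130 and 20920 in the s-shaped body, against 1416, 2464 and 298 in the renal vesicle and 1.48, 2313 and 5.3 in the collecting duct. All s-shaped body arrays lay above all others, while the renal vesicle and collecting duct overlapped, because collecting duct replicate 2 was near the highest renal vesicle array and its 2 partners were close to 0. On the log2 scale the means were 14.27 ± 0.09 in the s-shaped body, 10.05 ± 1.48 in the renal vesicle and 6.97 ± 3.67 in the collecting duct (SD, n = 3 each).

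The s-shaped body minus collecting duct difference of this probe set was 7.30 (SE 1.43, adjusted p = 0.00499), a 157-fold higher level. Against the renal vesicle, the s-shaped body difference was 4.22 (SE 1.43, adjusted p = 0.0679), 18.6-fold, which did not pass the threshold. That call depended on the setting: it passed with a filter on low values (adjusted p = 0.0288) and missed with array weights (adjusted p = 0.074). The largest of those weights, 2.93, fell on collecting duct replicate 2, against 0.635 and 0.357 for its partners. The renal vesicle minus collecting duct difference was 3.08 (SE 1.43, adjusted p = 0.196). These errors rest on collecting duct replicate 2. Without it, the differences were 9.43 (adjusted p = 2.54e-05) for s-shaped body minus collecting duct, 4.23 (adjusted p = 0.00132) for s-shaped body minus renal vesicle and 5.19 (adjusted p = 0.0012) for renal vesicle minus collecting duct. With renal vesicle replicate 3 left out as well, they were 9.39 (adjusted p = 9.12e-07), 3.37 (adjusted p = 9.87e-05) and 6.02 (adjusted p = 3.19e-05).

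A second probe set of Hbb-y, 1436717_x_at, gave nearly the same pattern, with 20143, 18117 and 21419 in the s-shaped body, against 1340, 2458 and 228 in the renal vesicle and 2.77, 2326 and 3.04 in the collecting duct. With all arrays its differences were 7.35 (SE 1.46, adjusted p = 0.00539) for s-shaped body minus collecting duct, 4.41 (SE 1.46, adjusted p = 0.0621) for s-shaped body minus renal vesicle and 2.94 (SE 1.46, adjusted p = 0.228) for renal vesicle minus collecting duct. Without collecting duct replicate 2 they were 9.49 (adjusted p = 4.28e-05), 4.42 (adjusted p = 0.0018) and 5.06 (adjusted p = 0.00245) in the same order. Leaving out renal vesicle replicate 3 as well gave 9.45 (adjusted p = 9.12e-07), 3.46 (adjusted p = 0.000108) and 5.99 (adjusted p = 3.39e-05). The suffix x of both, and of the other x_at probe sets below, marks probes that can bind other transcripts too. The remaining one, 1450621_a_at, read 1438, 2044 and 830 in the s-shaped body, against 3.09, 7.84 and 5.83 in the renal vesicle and 4.09, 8.47 and 3.34 in the collecting duct. On this probe set collecting duct replicate 2 was as low as its partners, and the renal vesicle arrays were low as well. Its s-shaped body differences were 5.49 against the collecting duct (SE 0.30, adjusted p = 1.02e-06) and 5.42 against the renal vesicle (SE 0.30, adjusted p = 3.26e-06). The renal vesicle minus collecting duct difference was 0.07 (SE 0.30, adjusted p = 0.922), so the probe sets of Hbb-y disagree on the intermediate level in the renal vesicle and on collecting duct replicate 2.

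Hba-x, the embryonic zeta globin, is the alpha-like partner of the embryonic beta-like chains. Probe set 1448716_at had 173, 263 and 213 in the s-shaped body, against 44.8, 49.3 and 40.4 in the renal vesicle and 50.4, 58.9 and 19.6 in the collecting duct. The s-shaped body arrays did not overlap with the others, and the remaining 6 arrays overlapped. The s-shaped body level was 3.58-fold above the collecting duct (log2 difference 1.84, SE 0.27, adjusted p = 0.000795) and 3.05-fold above the renal vesicle (1.61, SE 0.27, adjusted p = 0.00218).

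Alas2 encodes the erythroid form of the enzyme that starts heme synthesis. Probe set 1451675_a_at read 487, 644 and 564 in the s-shaped body, against 6.12, 22.4 and 47.3 in the renal vesicle and 6.95, 6.04 and 8.58 in the collecting duct. All s-shaped body arrays lay above all others, and the other 6 lay below the median of their array. The s-shaped body exceeded the collecting duct by 4.15 on the log2 scale (SE 0.29, adjusted p = 4.27e-06) and the renal vesicle by 3.51 (SE 0.29, adjusted p = 2.47e-05), 17.7-fold and 11.4-fold. Between renal vesicle and collecting duct the difference was 0.64 (SE 0.29, adjusted p = 0.183), and without renal vesicle replicate 1 it was 0.95 (adjusted p = 0.0458).

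Slc4a1 encodes band 3, the anion exchanger of the red cell membrane, of which a kidney form is also known in acid-secreting cells of the mature collecting duct. Probe set 1434502_x_at had 2353, 2758 and 1769 in the s-shaped body, against 57.1, 216 and 41.7 in the renal vesicle and 25.8, 34.6 and 35.8 in the collecting duct. No 2 structures overlapped on it. The s-shaped body was 41.6-fold above the collecting duct (log2 difference 5.38, SE 0.40, adjusted p = 6.28e-06) and 19.3-fold above the renal vesicle (4.27, SE 0.40, adjusted p = 5.15e-05). Renal vesicle minus collecting duct was 1.11 (SE 0.40, adjusted p = 0.0912), and without renal vesicle replicate 3 it was 1.48 (adjusted p = 0.0313). With all arrays it was called with a filter on low values (adjusted p = 0.0431) and with array weights (1.44, adjusted p = 0.0182). Without collecting duct replicate 2 it was not called (adjusted p = 0.187). Probe set 1416464_at gave 324, 329 and 231 in the s-shaped body, against 38.8, 44.2 and 18.7 in the renal vesicle and 14.9, 16.3 and 23.6 in the collecting duct. It was higher in the s-shaped body by 2.85 against the collecting duct (SE 0.24, adjusted p = 1.6e-05) and by 2.29 against the renal vesicle (SE 0.24, adjusted p = 0.000116). Its renal vesicle minus collecting duct difference was 0.56 (adjusted p = 0.159), and 0.73 with array weights (adjusted p = 0.0235). The remaining one, 1431743_a_at, read 14.2 at most, below the median of its array on all 9 arrays, and passed no test.

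**Figure D2:**
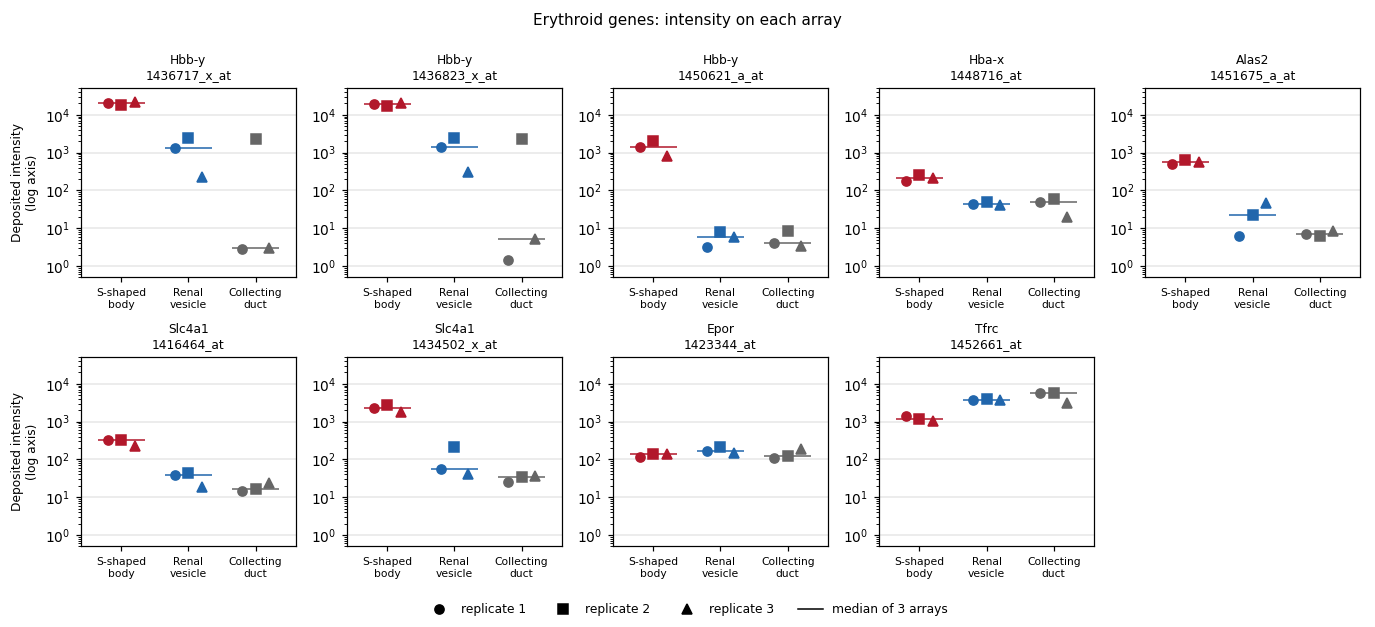
Deposited intensity (log axis) of the 9 erythroid probe sets above the median of their array on at least 3 arrays, on each of the 9 arrays, 1 panel per probe set, with s-shaped body, renal vesicle and collecting duct from left to right. Symbols mark the replicates and lines the median of 3 arrays. On the x_at probe sets of Hbb-y, collecting duct replicate 2 lies at 2313 and 2326 while its partners lie between 1.48 and 5.3.

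Epor and Tfrc did not follow the globin pattern. Epor (probe set 1423344_at), the erythropoietin receptor of red cell precursors, had 119, 136 and 136 in the s-shaped body, against 166, 218 and 147 in the renal vesicle and 106, 127 and 186 in the collecting duct. It passed no test in the main fit: the s-shaped body differed by -0.05 from the collecting duct (SE 0.22, adjusted p = 0.915). The s-shaped body differed by -0.50 from the renal vesicle (SE 0.22, adjusted p = 0.147), although their arrays did not overlap. Renal vesicle minus collecting duct was 0.45 (adjusted p = 0.21). With array weights the latter differences were called, at -0.58 (adjusted p = 0.0427) and 0.62 (adjusted p = 0.0253).

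Tfrc encodes the transferrin receptor, which brings iron into red cell precursors and also into dividing cells of other kinds. Its brightest probe set, 1452661_at, had 1434, 1157 and 1006 in the s-shaped body, against 3808, 4040 and 3831 in the renal vesicle and 5615, 5693 and 3173 in the collecting duct. All s-shaped body arrays lay below all others. Tfrc fell by 1.66 in the s-shaped body relative to the renal vesicle (SE 0.24, adjusted p = 0.000863). Relative to the collecting duct, its s-shaped body difference was -2.04 (SE 0.24, adjusted p = 0.000164), a 4.13-fold lower level. Tfrc's renal vesicle minus collecting duct difference of -0.38 (SE 0.24, adjusted p = 0.346) was -0.69 without collecting duct replicate 3 (adjusted p = 0.0141). With array weights it was -0.57 (adjusted p = 0.0285).

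The other 5 Tfrc probe sets, 3 of them control probe sets along the transcript, read at most 133 and lay below the median of their own array on all 9 arrays. None of these 5 passed a test. Cell cycle genes were read beside it: 5 of 9 were lower in the s-shaped body than in renal vesicle and 0 were higher, with Rrm2, a subunit of the enzyme that makes DNA building blocks, at -1.30. Against the collecting duct, 0 of the 9 were called, and 5 of the 9 were higher and 0 lower in the renal vesicle relative to the collecting duct, where Tfrc was not called. The list summed to 29780 to 32320 in the s-shaped body, 51460 to 58020 in the renal vesicle and 26270 to 35440 in the collecting duct. Its part in the Tfrc result was not tested.

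Among the macrophage members, Csf1r, the receptor for CSF1 and IL-34, was higher in the s-shaped body. Probe set 1419872_at had 3115, 2696 and 3093 in the s-shaped body, against 142, 316 and 298 in the renal vesicle and 267, 398 and 308 in the collecting duct. The s-shaped body arrays agreed closely and stood apart from the others, which overlapped. The level was 8.81-fold above the collecting duct (log2 difference 3.14, SE 0.25, adjusted p = 9.81e-06) and 10.7-fold above the renal vesicle (3.42, SE 0.25, adjusted p = 1.23e-05). Renal vesicle minus collecting duct was -0.28 (SE 0.25, adjusted p = 0.521). Probe set 1419873_s_at moved the same way, with 344, 354 and 231 in the s-shaped body, against 80.9, 135 and 55.2 in the renal vesicle and 47.3, 67.3 and 71.8 in the collecting duct. Its differences were 1.95 (SE 0.28, adjusted p = 0.000618) and 1.41 (SE 0.28, adjusted p = 0.00513) for the s-shaped body against the collecting duct and against the renal vesicle. The remaining one, 1423593_a_at, lay below the array medians with 56.4, 122 and 108 in the s-shaped body, against 110, 65.4 and 83.2 in the renal vesicle and 61.7, 52 and 102 in the collecting duct, and passed no test.

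Ctss encodes cathepsin S, a lysosomal protease of antigen-presenting cells. Probe set 1448591_at had 388, 142 and 241 in the s-shaped body, against 41.8, 44.6 and 30.9 in the renal vesicle and 36, 46.2 and 62.9 in the collecting duct. The s-shaped body arrays were spread widely and still lay above the other 6. The log2 difference was 1.89 against both the collecting duct (SE 0.30, adjusted p = 0.00153) and the renal vesicle (SE 0.30, adjusted p = 0.00171). The renal vesicle minus collecting duct difference was -0.01 (SE 0.30, adjusted p = 0.992).

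Laptm5, a lysosomal membrane protein of blood cells, followed another order. Probe set 1436905_x_at had 1484, 1451 and 1370 in the s-shaped body, against 52.9, 69.1 and 77.2 in the renal vesicle and 610, 623 and 1174 in the collecting duct. No 2 structures overlapped. On the log2 scale the collecting duct (mean 9.63) was far nearer to the s-shaped body (10.52) than to the renal vesicle (6.63). The s-shaped body was 14.9-fold above the renal vesicle (difference 3.90, SE 0.26, adjusted p = 7.3e-06). The renal vesicle was lower than the collecting duct, with a difference of -3.00 (SE 0.26, adjusted p = 3.06e-05). The s-shaped body minus collecting duct difference of 0.89 (SE 0.26, adjusted p = 0.0373) lost its call when any of several arrays was left out: it was 0.74 (adjusted p = 0.138) without collecting duct replicate 2, 0.70 (adjusted p = 0.113) without collecting duct replicate 1, and 0.87 to 0.92 (adjusted p = 0.088 to 0.103) without an s-shaped body array. Without renal vesicle replicate 2 its adjusted p was 0.0567.

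Probe set 1426025_s_at of Laptm5 gave 332, 318 and 329 in the s-shaped body, against 137, 168 and 160 in the renal vesicle and 223, 290 and 359 in the collecting duct. It was higher in the s-shaped body than in renal vesicle by 0.82 (SE 0.19, adjusted p = 0.0124). It was lower in the renal vesicle than in collecting duct by a difference of -0.67 (SE 0.19, adjusted p = 0.0383), a call that held without collecting duct replicate 1 and was lost without each of the other 8 arrays (adjusted p up to 0.116). The dim remaining probe set, 1417721_s_at, had 49.2, 58.1 and 66.1 in the s-shaped body, against 22.4, 24.8 and 76.9 in the renal vesicle and 83.3, 12.8 and 16.9 in the collecting duct. It passed no test with all arrays, and without collecting duct replicate 1 it was higher in the s-shaped body than in collecting duct by 1.10 (adjusted p = 0.0479).

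Adgre1 encodes F4/80, a surface protein widely used to stain mouse macrophages. Probe set 1451161_a_at had 373, 258 and 294 in the s-shaped body, against 141, 157 and 196 in the renal vesicle and 254, 248 and 280 in the collecting duct. The renal vesicle arrays lay below all others, and those of the s-shaped body overlapped with the collecting duct. The s-shaped body minus renal vesicle difference was 0.66 (SE 0.19, adjusted p = 0.0357), 1.58-fold, and it missed the threshold without s-shaped body replicate 1 or 3, renal vesicle replicate 1 or 2, or collecting duct replicate 2 (adjusted p = 0.0535 to 0.13). The differences were 0.19 (adjusted p = 0.588) for s-shaped body minus collecting duct and -0.47 (adjusted p = 0.137) for renal vesicle minus collecting duct.

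**Figure D3:**
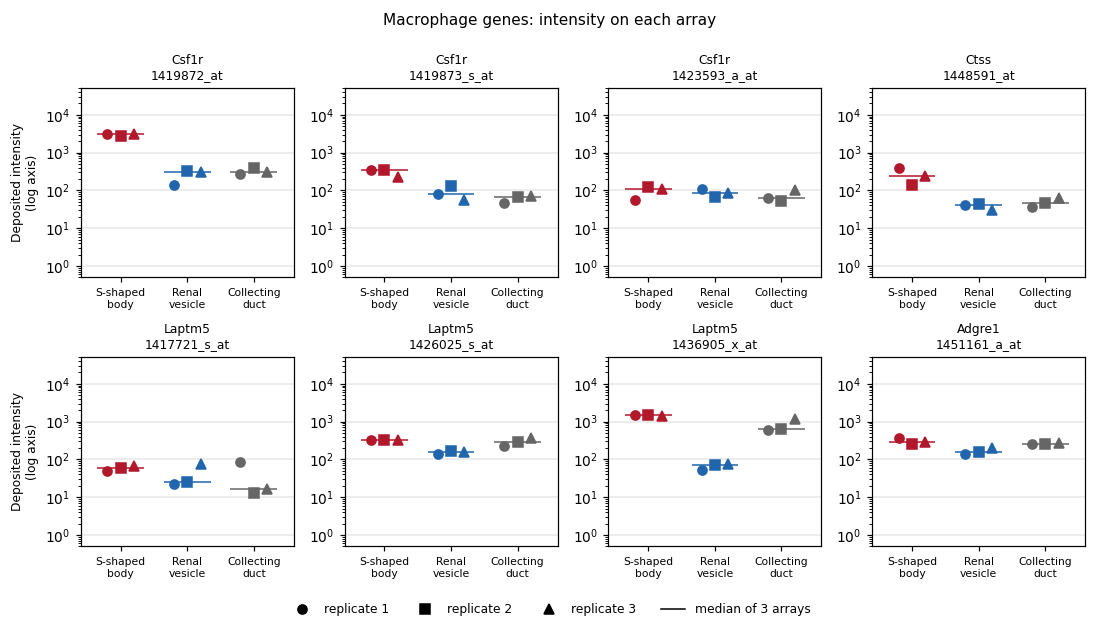
Deposited intensity (log axis) of the macrophage members on each of the 9 arrays, 1 panel per probe set, with s-shaped body, renal vesicle and collecting duct from left to right. Symbols mark the replicates and lines the median of 3 arrays. Csf1r 1419872_at lies between 2696 and 3115 in the s-shaped body and at 398 or below elsewhere, while Laptm5 1436905_x_at is low only in the renal vesicle among the 3 structures.

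Other genes of the erythroid and macrophage programmes were read from lists. Each gene of these lists is read by its brightest probe set, for which 10.9% of all genes were higher in the s-shaped body and 9.72% lower against the collecting duct. Of 4 further globins, 2 were higher in the s-shaped body than in collecting duct, and the globin partner on that list was not measured. Hbb-bh1, another embryonic beta-like globin, had 131, 213 and 205 in the s-shaped body, against 3.17, 3.11 and 4.88 in the renal vesicle and 3.68, 4.92 and 2.81 in the collecting duct. It was higher in the s-shaped body than in collecting duct by 2.76 (SE 0.19, adjusted p = 3.66e-06) and than in renal vesicle by 2.72. Hbb-b2, an adult beta globin, was higher than in collecting duct by 1.27 (SE 0.30, adjusted p = 0.0144).

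Of 7 genes of heme synthesis other than Alas2, 3 were higher in the s-shaped body and 1 lower than in collecting duct. Fech, which inserts iron into the heme ring, had 2816, 3423 and 3166 in the s-shaped body, against 1010, 1010 and 1053 in the renal vesicle and 1429, 1540 and 1588 in the collecting duct. Urod and Alad, which act earlier in the pathway, were higher by 0.92 and 0.82, and Cpox was lower with a difference of -0.86. Against the renal vesicle 2 of the 7 were higher and 1 lower, with Cpox at -0.98 and Fech at 1.59.

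Of 13 genes of the red cell membrane and skeleton, 3 were higher in the s-shaped body and 2 lower than in collecting duct, and 4 were higher and 0 lower than in renal vesicle, where 11.8% and 10.5% of all genes were higher and lower. Ermap, an erythroid membrane-associated protein, was higher by 1.32 (SE 0.21, adjusted p = 0.00128) than in collecting duct and by 1.44 (SE 0.21, adjusted p = 0.000878) than in renal vesicle. Gypc, a glycophorin found in many cell types, was higher by 2.34 than in collecting duct and by 1.38 than in renal vesicle. The water channel Aqp1, which red cells and endothelium both use, was higher by 1.25 and 1.41. Dmtn, an actin-bundling protein, was lower than in collecting duct with a difference of -1.06.

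Of 12 transcription regulators of the lineage, 4 were higher in the s-shaped body and 2 lower than in collecting duct. Against the renal vesicle 5 were higher and 1 lower, the same with median centring, and 7 and 1 with no further normalization. Among the higher ones, Lmo2 had 1903, 1433 and 1549 in the s-shaped body, against 56.8, 174 and 112 in the renal vesicle and 103, 20.6 and 19.4 in the collecting duct. Tal1 had 483, 473 and 467 in the s-shaped body, against 40.2, 43.5 and 59 in the renal vesicle and 101, 124 and 34.7 in the collecting duct. Both are known in blood and endothelial cells. The regulators that mark red cell precursors were not called: Gata1 had 124, 165 and 126 in the s-shaped body, against 53.3, 80.3 and 72.6 in the renal vesicle and 99.4, 139 and 90.3 in the collecting duct, and Klf1 lay between 74.6 and 115 on all 9 arrays. Myb, a regulator of blood progenitors, was lower in the s-shaped body than in renal vesicle with a difference of -3.21 (SE 0.29, adjusted p = 4.18e-05). Gata2 was lower in the s-shaped body than in collecting duct with a difference of -1.55, and higher than in renal vesicle by 0.69 (adjusted p = 0.0163).

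Of 12 genes of erythropoietin signalling, 1 was higher in the s-shaped body and 2 lower, both against the collecting duct and against the renal vesicle. Jak2, the kinase bound to Epor, was among the lower ones in both, with differences of -0.89 and -1.04. Of 14 genes of iron handling, 5 were higher and 1 lower than in collecting duct. Slc40a1, the iron exporter ferroportin, had 862, 566 and 520 in the s-shaped body, against 281, 329 and 301 in the renal vesicle and 5157, 6149 and 6011 in the collecting duct. It was lower in the s-shaped body than in collecting duct with a difference of -3.22 (SE 0.19, adjusted p = 1.34e-06) and in the renal vesicle with a difference of -4.12. Against the renal vesicle, 6 of the 14 were higher in the s-shaped body and 1 was lower. Among the higher ones were Slc25a37, the mitochondrial iron importer mitoferrin, at 1.45, the ferritin heavy chain gene Fth1 at 0.60 and Slc40a1 at 0.90. With median centring 4 of the 14 were higher and 1 lower, and with no further normalization 6 and 1.

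Of 11 genes of CSF1 receptor signalling, 1 was higher in the s-shaped body and 0 lower than in collecting duct, and 3 were higher and 0 lower than in renal vesicle. The ligand Csf1 had 242, 227 and 220 in the s-shaped body, against 74, 110 and 119 in the renal vesicle and 195, 201 and 239 in the collecting duct. It was higher in the s-shaped body than in renal vesicle by 0.87, and lower in the renal vesicle than in collecting duct with a difference of -0.78. Tyrobp, a signalling adaptor of myeloid cells, had 100, 101 and 109 in the s-shaped body, against 12.2, 48 and 25.8 in the renal vesicle and 77.5, 39.1 and 91 in the collecting duct. It was higher in the s-shaped body than in renal vesicle by 1.18.

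Of 18 lysosomal genes, 8 were higher in the s-shaped body and 0 lower than in renal vesicle with quantile normalization, but 5 were higher with median centring and 7 with no further normalization. Against the collecting duct, 5 were higher in the s-shaped body and 4 lower. In the renal vesicle 1 was higher and 7 were lower than in collecting duct, where 9.12% and 9.5% of all genes were higher and lower, and only 3 of the 18 were lower with median centring. Ctsb, a broadly used lysosomal protease, was higher in the s-shaped body than in renal vesicle by 1.41 and than in collecting duct by 0.97.

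Of 44 phagocytic and surface genes of macrophages, 7 were higher in the s-shaped body and 2 lower than in collecting duct, and 6 were higher and 1 lower than in renal vesicle. Mpeg1, the pore-forming perforin-2 of phagocytes, had 198, 90 and 181 in the s-shaped body, against 8.79, 13.1 and 5.29 in the renal vesicle and 10.9, 17.9 and 25.9 in the collecting duct. Stab1, a scavenger receptor of macrophages and some endothelium, had 329, 291 and 357 in the s-shaped body, against 13.7, 45 and 10.3 in the renal vesicle and 9.74, 29.6 and 5.72 in the collecting duct. Lgals3, a lectin that duct epithelium also makes, was lower in the s-shaped body than in collecting duct with a difference of -3.62 and higher than in renal vesicle by 2.29.

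The remaining lists gave these counts between renal vesicle and collecting duct. None of the 4 further globins was called. In the renal vesicle 1 of the 7 heme synthesis genes was higher and 1 lower, 1 of the 13 membrane genes was higher and 1 lower, and 1 of the 12 regulators was higher (Myb, by 2.25) and 2 were lower (Gata2, at -2.24, and Zfpm1, at -0.73). Of the 12 erythropoietin signalling genes 1 was higher and 2 were lower, and of the 14 iron genes 2 were higher and 2 lower. The iron counts were 4 higher and 1 lower with median centring, and 1 and 2 with no further normalization. Of the 11 CSF1 receptor genes 0 were higher and 1, Csf1, was lower. Of the 44 phagocytic and surface genes 4 were higher and 2 lower, and 1 was higher with no further normalization.

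Marker lists of cell types that a dissected piece could hold were read beside these genes, and the plot of summed intensities shows them. Of 9 measured erythroid markers, which include 4 of the members, 5 were higher in the s-shaped body than in collecting duct, 4 were higher than in renal vesicle and 0 were lower. Of the 5 that are no members, 1 (Hbb-bh1) was higher in each of these comparisons and 0 were lower. The 9 summed to 21890 to 24520 in s-shaped body arrays, against 691.8 to 2979 in renal vesicle arrays, after normalization. The deposited intensities of Hbb-y alone, not normalized as these sums are, were 17130 to 20920 and 298 to 2464. In the collecting duct the 9 summed to 334.8, 2681 and 369.9 after normalization, and the deposited intensity of Hbb-y in replicate 2 was 2313. Without the members, deposited intensities were summed, which cannot be subtracted from the normalized sums. They came to 425.3 to 560.4 in s-shaped body arrays, 185.6 to 227.7 in renal vesicle arrays and 235.8 to 362.1 in collecting duct arrays. Of 14 macrophage markers, 3 were higher than in collecting duct, and 5 were higher and 1 was lower than in renal vesicle. The members are 4 of these 14 genes. Of the other 10, 0 were called against the collecting duct, and 1 (Tyrobp) was higher and 1 (Ptprc) lower in the s-shaped body than in renal vesicle. All 14 summed to 5051 to 6045 in the s-shaped body, 943.9 to 1280 in the renal vesicle and 1696 to 2359 in the collecting duct. Without the members, the sums of deposited intensities overlapped, with 512.3 to 709.3 in s-shaped body arrays, 451.5 to 627.4 in renal vesicle arrays and 456.7 to 569.5 in collecting duct arrays. Of the 14, 10 lay at or below the array median on every s-shaped body array, against 11 on every renal vesicle array and 11 on every collecting duct array. Cd68, a glycoprotein of macrophage lysosomes, had 45.2, 51.3 and 55.9 in the s-shaped body, against 45.8, 69.4 and 30.1 in the renal vesicle and 54.5, 99.6 and 76 in the collecting duct, and was not called. Ptprc, the pan-leukocyte surface protein CD45, was lower in the s-shaped body than in renal vesicle, with a difference of -1.09 (adjusted p = 0.0361).

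All 12 endothelial markers were higher in the s-shaped body than in collecting duct and than in renal vesicle. Kdr, the VEGF receptor of endothelium, had 2584, 2181 and 2735 in the s-shaped body, against 102, 130 and 87.4 in the renal vesicle and 90.7, 86.9 and 121 in the collecting duct. The list summed to 24910 to 28890 in the s-shaped body, 5098 to 9566 in the renal vesicle and 684.5 to 932.8 in the collecting duct. Of 8 stromal markers, 7 were higher than in collecting duct and 6 than in renal vesicle, and they summed to 20880 to 25880 in the s-shaped body, 1520 to 2997 in the renal vesicle and 446.5 to 688.9 in the collecting duct. The parts of endothelium and stroma in the members' differences were not tested. Of 6 lymphocyte markers none was called in any of the 3 comparisons, with sums of 285.4 to 391.6 in the s-shaped body, 203.7 to 450.5 in the renal vesicle and 255.3 to 467.5 in the collecting duct. Of 7 granulocyte and mast cell markers, 0 were called for s-shaped body against collecting duct, and 1 was lower in the s-shaped body than in renal vesicle. Their sums were 327.8 to 513.2 in the s-shaped body, 509.9 to 643.4 in the renal vesicle and 369.3 to 603.5 in the collecting duct.

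**Figure D4:**
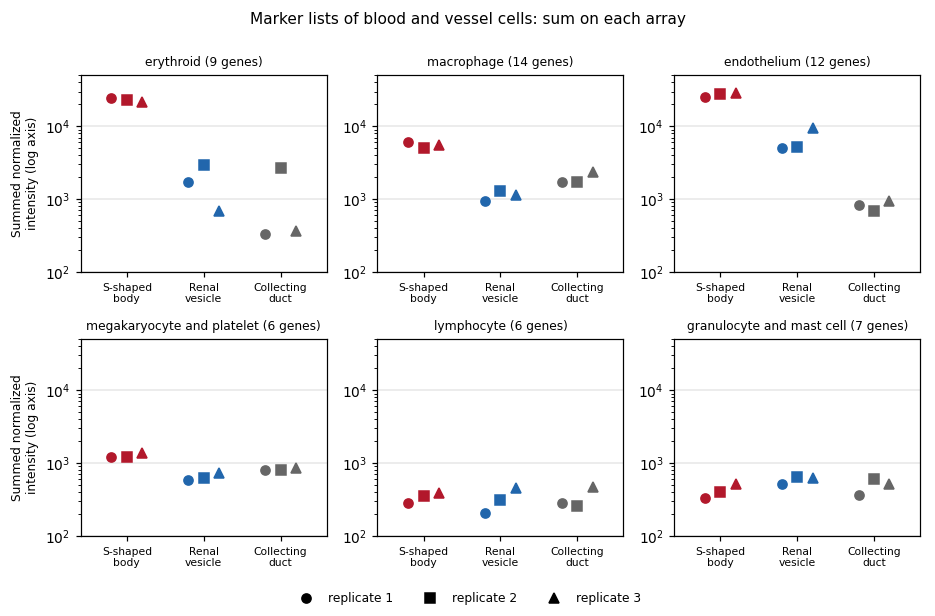
Summed normalized intensity (log axis) of marker lists on each of the 9 arrays, with s-shaped body, renal vesicle and collecting duct from left to right in each panel. Endothelial markers lie between 24910 and 28890 in the s-shaped body and between 684.5 and 932.8 in the collecting duct, and the erythroid sum of collecting duct replicate 2 is 2681.

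The genes whose levels followed Hbb-y most closely over the 9 arrays, among 7974 candidates, were Angpt2 (Pearson's r = 0.954), Adnp2 (0.946), Fign (0.939), Sec31a (0.937) and Pcsk6 (0.921). Angpt2, which encodes a secreted growth factor, had 249, 270 and 293 in the s-shaped body, against 69.8, 82.3 and 81.1 in the renal vesicle and 13.2, 69.7 and 5.47 in the collecting duct. All its collecting duct values lay below the median of their array, and since the genes were picked for following Hbb-y over these arrays, likeness on a single array adds nothing. For Csf1r they were Snx17 (0.993), Oaz2 (0.991), Sox18 (0.99), Ankrd33b (0.988) and Tjp1 (0.988). These values describe 9 arrays in 3 structures, which share the contrast between the structures.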

How the data were processed

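Each probe set had 1 deposited intensity (linear) for every array. GCOS is named in the submitters' processing notes, with no version or algorithm, and no genome build is given in the sources used here. The mean of each array without its top and bottom 2% lay between 500.2 and 500.3, so the deposited arrays had been scaled to a common mean. Detection calls were not used. Groups came from the labels. Arrays give no counts, and their number, 3 per structure, limits the precision.

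To every intensity 26 was added (the 20th percentile over all arrays), log2 taken and the arrays quantile normalized, because their medians then spanned 0.305. The pseudocount understates folds of dim genes. All 22629 probe sets in the fit (other Affymetrix controls left out) entered a two-sided test by limma 3.58.1 (R 4.3.3; lmFit, eBayes, intensity trend), with 9 arrays. P-values were adjusted by Benjamini-Hochberg within each comparison over all probe sets, and called under 0.05. No filter on low values was used, so every member was tested; 15 of the 23 would pass one requiring an intensity above the median of its own array on at least 3 arrays. Differences are the first structure minus the second. Probe sets were named by the platform annotation: 20393 had 1 symbol and 691 several.

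The members and lists were chosen with earlier results of these data known. Genes named from a list, at most 4 per comparison, came from the 4 with the smallest adjusted p among those called. Gata1, Klf1, Cd68 and Ptprc were named after their values were seen. Likeness was Pearson's r of the brightest probe sets. The same-number arrays correlated at -0.0597 to 0.165 after removing group means, so the numbers were not used as pairs. Alternatives were the pseudocount, normalization, filter, trend, array weights, block, samples in the fit, a 2-fold minimum and left-out arrays. Scripts were tested on simulated data.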

Additional observations from a re-analysis of the deposited data

Results flagged for a closer look

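Some globin probe sets fall outside the comparisons because the annotation assigns each to several globin genes, so no single gene is named for them. Their lowest s-shaped body array lay far above the highest collecting duct array. A beta-globin probe set with 4 symbols, 1417184_s_at, had 13172, 13647 and 16073 in the s-shaped body, against 542, 1552 and 439 in the renal vesicle and 145, 92.8 and 434 in the collecting duct. It was higher in the s-shaped body than in collecting duct by 6.13 on the log2 scale (adjusted p = 1.49e-05), and renal vesicle minus collecting duct was 1.87 (adjusted p = 0.0332).

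The other 3 have 2 alpha-globin symbols each. Probe set 1428361_x_at had 8807, 14060 and 10473 in the s-shaped body, against 342, 1148 and 94 in the renal vesicle and 177, 218 and 189 in the collecting duct. Probe set 1452757_s_at had 4975, 6716 and 4185 in the s-shaped body, against 184, 481 and 82.6 in the renal vesicle and 82.8, 121 and 41 in the collecting duct. Probe set 1417714_x_at had 1707, 2287 and 1077 in the s-shaped body, against 2.75, 92.3 and 1.76 in the renal vesicle and 1.37, 1.98 and 2.1 in the collecting duct. Renal vesicle replicate 2 was the highest renal vesicle array on all 4. Collecting duct replicate 2, at 2313 and 2326 on the x_at probe sets of Hbb-y, was the lowest collecting duct array on the beta-globin set and the highest on 1428361_x_at and 1452757_s_at, at 218 and 121.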

How the results depend on the processing

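Over 69 member results and 1386 values under alternatives, 1328 kept direction and side of the threshold, 30 gained a call, 28 lost one, 0 called values reversed and 32 uncalled values changed sign. The 12 members called for s-shaped body against collecting duct became 11 to 12 in settings that tested all 23 members. With the filter 12 of 15 were called, where 1848 of 12590 probe sets were higher and 1753 lower. With 1 probe set per gene as well it was 8 of 10, where 1355 genes were higher and 1269 lower. In every setting 1 member was lower. Members bright in the s-shaped body alone, as Hba-x, Alas2 and Ctss were, pass this filter, so the counts with it are partly set by it. The 2 members called between renal vesicle and collecting duct became 6 with array weights, 1 with only the groups compared, 1 with a 2-fold minimum and 1 to 3 without 1 array. Over all 22629 probe sets, the 3467 calls of that comparison became 5803 with array weights. The 6 of 23 members called there were thus near the share of all probe sets. The calls over all probe sets became 1963 without renal vesicle 3 and collecting duct 2, and 1946 with the 2-fold minimum. That minimum left 2357 of 3761 calls for s-shaped body against collecting duct and 2290 of 4209 for s-shaped body against renal vesicle. With array weights, which were largest for collecting duct replicate 2, the s-shaped body minus collecting duct difference of Hbb-y 1436823_x_at was 4.67 (adjusted p = 0.0285). Of the renal vesicle against collecting duct calls, the share higher in renal vesicle was 51.1% with quantile normalization, 60.3% with median centring and 42.6% with no further normalization. Replicate numbers as a block gave 14 of 23 members for s-shaped body against renal vesicle, against 12 without. Over all 22629 probe sets, 2103 were higher and 2069 lower with the block, against 2138 and 2071 without. The added members were both x_at probe sets of Hbb-y (adjusted p = 0.0287 and 0.0344). Of 9 arrays, 5 correlated best with an array of their own number, and the block changed no other member call. The pseudocount limits what can be said of probe sets near 0. The causes of these shifts were not tested.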

Other observations

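Of the megakaryocyte and platelet markers, 6 were measured, of which 1 was higher in the s-shaped body than in collecting duct and 2 were higher than in the renal vesicle. Pf4, a chemokine of platelet granules that some embryonic macrophages also make, had 590, 543 and 690 in the s-shaped body, against 101, 73.8 and 91.9 in the renal vesicle and 72.1, 64.1 and 73.5 in the collecting duct. Its difference was 2.77 against the collecting duct (SE 0.20, adjusted p = 5.41e-06) and 2.33 against the renal vesicle. Ppbp, another platelet chemokine, was higher than in the renal vesicle by 1.04.

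A search for probe sets at least 4 log2 units above both other arrays of the same structure found 2, both Hbb-y in collecting duct replicate 2 (largest margin 6.36), and 0 on each of the other 8 arrays. Afp, the alpha-fetoprotein of yolk sac and fetal liver, chosen after its values were seen, had the largest margin of s-shaped body replicate 1, with 1438, 139 and 67.2 in the s-shaped body, against 34, 148 and 148 in the renal vesicle and 21.9, 34.7 and 18.4 in the collecting duct.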
